A study of Mus musculus with 16 samples.

Results

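A set of 35 genes of skeletal muscle fibres was followed through gonadal and subcutaneous fat of female mice. The members were named by their textbook roles in muscle, but with earlier results of these data known. They were matched by symbol to the rows of both expression tables, and all 35 were found among 30325 gonadal and 30946 subcutaneous genes. Of these, 15 are typical of fast fibres, 6 of slow fibres, and 14 are shared by both fibre types. After a filter on low values 33 members could be tested in gonadal fat and 25 in subcutaneous fat.

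The mice were females on the C57BL/6J background that carried the Lcn2-null allele of the line B6.129P2-Lcn2tm1Aade/AkiJ, so every group lacked the mouse's own working Lcn2, the gene of the secreted protein lipocalin-2. At 8 weeks of age each had an intravenous injection of an AAV8 vector that expresses either LCN2 or, as the control, green fluorescent protein (GFP). The adiponectin promoter, which is active in fat cells, drives the insert, and a target site for microRNA-122 lowers its expression in liver. All groups were fed an HF/HS diet, and both fats were taken at 16 weeks, with 4 libraries per vector and depot. The labels do not say whether libraries of the 2 depots with the same number came from 1 mouse. Lcn2 itself had a normalized count of 62.1 to 103 in the GFP libraries and 186 to 522 in the LCN2 libraries of gonadal fat. In subcutaneous fat its rlog value was 7.76 to 8.37 with GFP and 8.49 to 9.82 with LCN2, so the groups did not overlap in either depot.

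Skeletal muscle fibres contract when calcium leaves an internal store, binds troponin on the actin filament and lets myosin pull on that filament. Fast and slow fibres use different genes for the myosin heavy chain, the light chains, the troponins and the calcium store, whereas skeletal actin, titin, nebulin and the muscle creatine kinase serve both. Adipocytes make non-muscle actin and myosin instead, and adipose tissue also holds smooth muscle in its vessels, so a transcript of a striated muscle gene in a piece of fat can come from muscle fibres beside the depot or from cells of the fat. The libraries were made from whole tissue, where fewer cells of a type and less RNA per cell cannot be told apart.

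Single libraries stood apart from the others of their group. In gonadal fat the 35 members together took 2873 counts per 1000000 recovered reads (CPM) in LCN2 replicate 4 (95% exact Clopper-Pearson interval 2856 to 2891, which covers counting error only), against 87.4 to 237 in the other 7 libraries. Without Acta1 and Myl1, which had many reads in every library, the order was LCN2 replicate 4 with 2286, GFP replicate 2 with 94.0, LCN2 replicate 2 with 65.8 and GFP replicate 4 with 43.0 CPM, the remaining 4 lying between 20.99 and 30.8. In subcutaneous fat GFP replicates 1 and 2 and LCN2 replicate 4 were high in 17 markers of B cells and lymph node, whose median lay 4.26, 3.33 and 2.35 above each marker's own median on the rlog scale. The recovered depth of the gonadal libraries was 35173260 to 42890102 reads, and that of the subcutaneous libraries is unknown.

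The bases just before the start of 4 members are shown because these genes moved together or apart in the results that follow. The fast myosin gene Myh4 and the creatine kinase gene Ckm followed 1 library, and Acta1 was also high in a library in which Ckm was not. Casq1 differed from most other fast genes in both depots, as did Myl1. The windows hold the 250 bases before the RefSeq start on GRCm38.p6, which are chr8:123894776-123895025 (minus strand) for Acta1, chr11:67237562-67237811 (plus) for Myh4, chr7:19410844-19411093 (plus) for Ckm and chr1:172219896-172220145 (minus) for Casq1. Capitals mark matches on either strand to the E-box CANNTG, which myogenic factors such as MyoD recognise, to the MEF2 site, and to the CArG box of serum response factor, and no matches overlapped in these 4 windows.
Acta1: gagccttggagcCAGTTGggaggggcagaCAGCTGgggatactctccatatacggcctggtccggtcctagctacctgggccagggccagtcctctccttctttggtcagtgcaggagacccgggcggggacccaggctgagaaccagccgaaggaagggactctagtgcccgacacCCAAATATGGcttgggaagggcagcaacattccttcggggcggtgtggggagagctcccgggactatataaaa
Myh4: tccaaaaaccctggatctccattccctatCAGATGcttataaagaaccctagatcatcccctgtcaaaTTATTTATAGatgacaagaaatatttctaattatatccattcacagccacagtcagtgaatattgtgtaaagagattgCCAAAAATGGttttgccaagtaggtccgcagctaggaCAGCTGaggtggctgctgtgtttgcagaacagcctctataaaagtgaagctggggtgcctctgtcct
Ckm: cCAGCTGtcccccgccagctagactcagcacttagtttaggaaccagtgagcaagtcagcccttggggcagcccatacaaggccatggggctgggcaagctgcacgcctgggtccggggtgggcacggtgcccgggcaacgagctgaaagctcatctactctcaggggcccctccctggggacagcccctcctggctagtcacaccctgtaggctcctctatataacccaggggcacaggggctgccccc
Casq1: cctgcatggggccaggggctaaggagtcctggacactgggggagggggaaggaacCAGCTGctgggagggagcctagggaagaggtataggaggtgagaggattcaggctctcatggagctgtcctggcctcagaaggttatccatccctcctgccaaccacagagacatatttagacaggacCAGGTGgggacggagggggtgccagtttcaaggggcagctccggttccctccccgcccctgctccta
RefSeq windows were found for 26 of the 35 members, some of which have more than 1, making 31 windows. Of these, 27 windows, from 23 members, held an E-box, as did 66.2% of all 32841 windows of this length. A MEF2 site was found in 5 of the 31, from Myh1, Myh4, Ttn, Casq2 and Pvalb, and in 2.92% of all windows. A CArG box was found in 2 of the 31, from Acta1 and Myh4, and in 1.47% of all windows. These are matches of letters and were not tested as binding sites.

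In gonadal fat the fast fibre genes were carried by 1 library. Myh4 encodes the myosin of the fastest fibres, type IIb, and lies in the myosin cluster of chromosome 11 (67238029 to 67260446, plus strand, GRCm38). Its normalized counts were 3.16, 812, 3.18 and 4.97 in GFP replicates 1 to 4 and 8.89, 88.7, 3.40 and 17783 in LCN2 replicates 1 to 4. LCN2 replicate 4 was thus the highest, GFP replicate 2 the next and LCN2 replicate 2 the third, and the other 5 libraries held under 10 counts each, so the groups overlapped. Myh1, the type IIx myosin, had 18.99, 161, 11.7 and 9.94 with GFP and 13.3, 85.7, 13.6 and 7633 with LCN2. Myh2, the type IIa myosin, had 12.7, 109, 9.54 and 9.94 with GFP and 9.78, 143, 5.67 and 6180 with LCN2. The same 3 libraries were highest for both genes, but for Myh2 LCN2 replicate 2 exceeded GFP replicate 2.

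The light chains and troponins of fast fibres followed the same library, with 1 exception. Mylpf, the regulatory light chain, had 23.2, 92.6, 15.9 and 23.2 with GFP and 28.4, 40.3, 28.3 and 3368 with LCN2. Tnnt3, the fast troponin T that ties the troponin complex to tropomyosin, had 27.4, 186, 13.8 and 58.8 with GFP and 30.2, 90.8, 21.5 and 4586 with LCN2. LCN2 replicate 4 lay 119-fold (Mylpf) and 152-fold (Tnnt3) above the median of the other 7 libraries. Tnni2, the fast troponin I that holds back contraction at rest, ran from 4.24 to 78.3 in those 7 libraries and reached 1909. Myl1, the essential light chain of fast fibres, was the exception, at 1215, 1307, 1589.8 and 665 with GFP and 1026, 1004, 1542 and 4914 with LCN2. It was abundant in every library, and LCN2 replicate 4 lay only 4.04-fold above the median of the others. The next highest value was in GFP replicate 3, a library among the 4 lowest in members outside Acta1 and Myl1. Of its 75-base windows, 8.08% also occur in the pseudogene Mylf-ps.

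The calcium handling genes of fast fibres did the same to different degrees. Atp2a1, the pump that returns calcium to the store, had 13.6 to 290 counts in the other 7 libraries and 6251 in LCN2 replicate 4. Pvalb, a calcium buffer of fast fibres, had 1.06, 66.1, 0 and 1.66 with GFP and 9.78, 45.4, 3.40 and 1209 with LCN2. Casq1, the calcium-binding protein of the fast store, had 16.9, 39.7, 12.7 and 56.4 with GFP and 47.1, 126, 82.8 and 811 with LCN2, a rise of only 17.2-fold in LCN2 replicate 4 over the median of the others. For Casq1 the second highest library was LCN2 replicate 2 and the third LCN2 replicate 3, which was low in the fast myosins. The remaining fast members, Actn3 and Myoz1 of the Z-disc, Mybpc2 of the thick filament and Ampd1 of purine metabolism, were highest in LCN2 replicate 4 at 2317, 543, 2019 and 362 counts and next highest in GFP replicate 2.

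Tnnc2, the fast troponin C that binds calcium, was the 1 member not highest in LCN2 replicate 4. It had no read there and at most 1 read in any gonadal library, while its partners Tnni2 and Tnnt3 had 1909 and 4586 counts in that library. Of the exonic bases of Tnnc2, 74.0% overlap Ube2c on the opposite strand, which had 46.4 to 172 counts in gonadal fat. How the authors' counting treated overlapping genes and strand is not given in the sources used here. Mb overlaps opposite genes, among them the abundant Apol6, over 31.9% of its exonic bases, Atp2a1 overlaps Rabep2 over 21.9%, and Cacna1s and Ckm overlap opposite genes over 19.98% and 15.5%, so these counts are uncertain too.

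**Figure D1:**
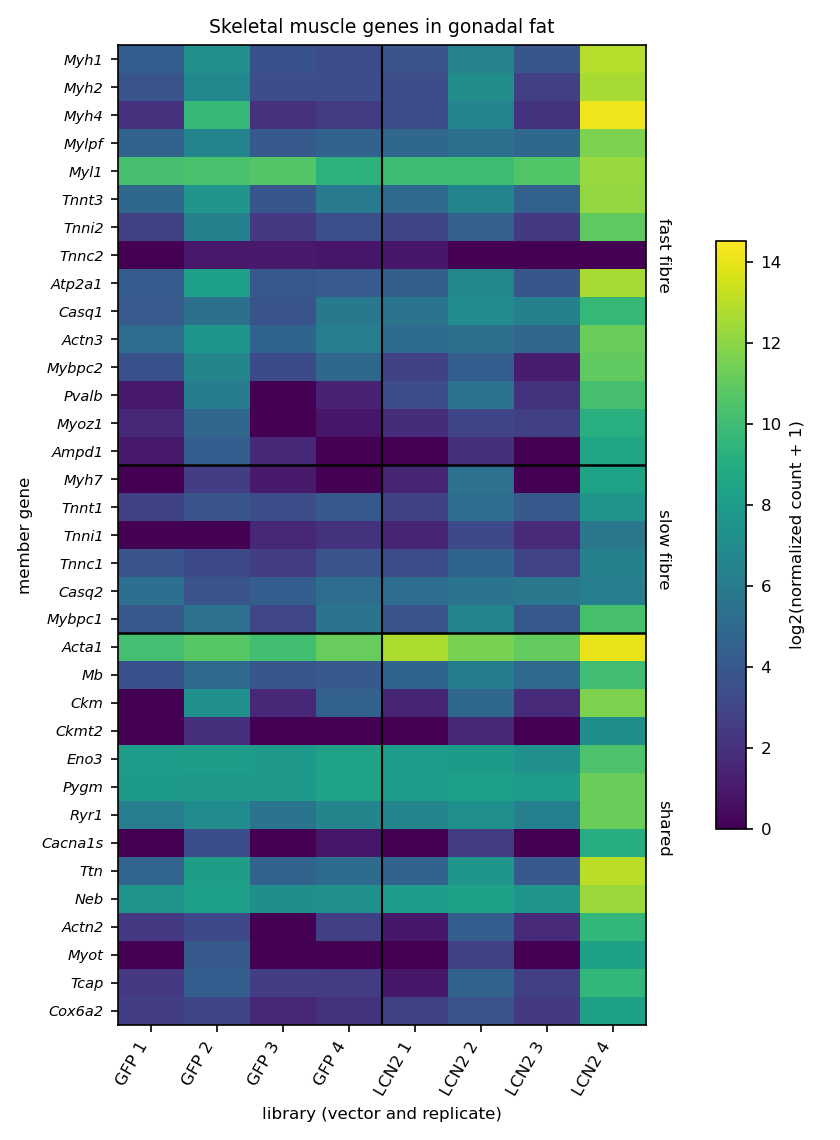
Normalized counts of the 35 members in the 8 gonadal libraries, as log2 of the count plus 1 (colour), with fast, slow and shared genes from the top and the 4 GFP libraries on the left. LCN2 replicate 4 is the brightest column for 34 of the 35 members, and Myl1, Acta1, Eno3, Pygm and Neb are visible in every library.

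Slow fibre genes were low, and in most of them LCN2 replicate 2 came second. That library was also second in Myh2, Casq1, Mb, Ryr1, Neb, Actn2, Tcap and Cox6a2 of the other classes. Myh7, the slow and cardiac myosin, had 0, 5.09, 1.06 and 0 counts with GFP and 1.78, 43.4, 0 and 343 with LCN2. LCN2 replicate 2, with 43 reads, came second, and GFP replicate 2 had 5 reads. Mybpc1, a slow thick filament protein, had 15.8, 43.7, 7.42 and 47.2 with GFP and 12.4, 90.8, 14.7 and 1233 with LCN2. Tnnt1, the slow troponin T, had 6.33, 13.2, 9.54 and 14.9 with GFP and 6.22, 37.3, 15.9 and 182 with LCN2. Tnnc1, the troponin C of slow fibres and heart, had 12.7, 8.14, 5.30 and 13.3 with GFP and 9.78, 24.2, 6.80 and 83.2 with LCN2. In each of these 4 genes LCN2 replicate 2 was second to LCN2 replicate 4, and GFP replicate 2 was not. Casq2, the calsequestrin of slow fibres and heart, rose least in LCN2 replicate 4 among the 34 members highest there, with 39.0, 12.2, 19.1 and 37.3 for GFP and 37.3, 47.4, 55.6 and 71.2 for LCN2, and LCN2 replicate 4 lay 1.91-fold above the median of the others. Tnni1, the slow troponin I, had at most 8.07 counts outside LCN2 replicate 4 and 53.2 in it.

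Per length, the makeup of the 4 adult myosin heavy chain genes differed between the 3 libraries with many reads on them. In LCN2 replicate 4, from 31844 reads, Myh4 made up 58.4%, Myh1 23.7%, Myh2 17.1% and Myh7 0.786% of their summed reads per kilobase. In GFP replicate 2, from 1068 reads, the shares were 76.6%, 14.4%, 8.66% and 0.335%. In LCN2 replicate 2, from 358 reads, they were 27.7%, 25.3%, 37.6% and 9.44%. Thus Myh4 led in the first 2 libraries and Myh2 in the third, where the slow myosin also had its highest share. Undivided by length, the Myh7 share of reads was 12.0% in LCN2 replicate 2 (exact interval 8.83 to 15.8), 1.07% in LCN2 replicate 4 (0.963 to 1.19) and 0.468% in GFP replicate 2 (0.152 to 1.09). The other 5 libraries held 20 to 38 reads on the 4 genes, and Myh1 led there with 40.7% to 61.2% per length, from 11 to 18 reads. Between 9.68% (Myh4) and 15.8% (Myh1) of the 75-base windows of the fast myosins recur in their neighbours, and 10.6% of those of Myh7 recur in Myh6, so the split between genes is uncertain by such shares.

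**Figure D2:**
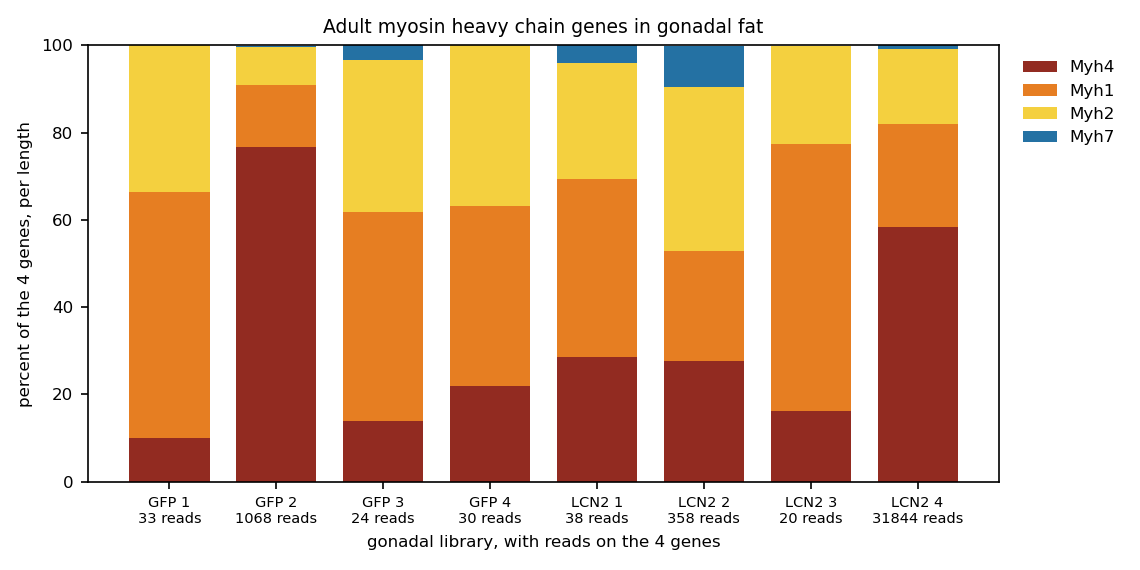
Share of Myh4, Myh1, Myh2 and Myh7 in the summed reads per kilobase of the 4 genes, for each gonadal library, with the reads behind each bar under its name. Myh4 leads in GFP replicate 2 and LCN2 replicate 4 and Myh2 leads in LCN2 replicate 2, while 5 bars rest on 20 to 38 reads.

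Shared fibre genes fell into 2 kinds. Ckm, the muscle creatine kinase that buffers ATP, had 0, 161, 2.12 and 21.5 counts with GFP and 1.78, 28.2, 2.27 and 3194 with LCN2. Mb, the oxygen store myoglobin, had 11.6, 29.5, 13.8 and 15.7 with GFP and 24.9, 66.6, 30.6 and 1076 with LCN2. Ttn, the spring of the sarcomere, ran from 15.9 to 274 in the other 7 libraries and reached 8310, a 328-fold rise over their median. Ckmt2, Cacna1s and Myot, which encode the mitochondrial creatine kinase, the voltage sensor and a Z-disc protein, were at 0 in 4 or 5 libraries and at 146, 517 and 318 counts in LCN2 replicate 4. Actn2, Tcap and Cox6a2, of the Z-disc and of muscle cytochrome oxidase, had at most 23.2 counts outside that library and 769, 774 and 297 in it.

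The other shared genes had a level in every gonadal library. Eno3, the muscle enolase of glycolysis, had 262, 278, 217 and 323 counts with GFP and 244, 236, 163 and 1409 with LCN2. Pygm, the muscle glycogen phosphorylase, had 243, 228, 224 and 324 with GFP and 244, 294, 255 and 2422 with LCN2. Neb and Ryr1, the ruler of the thin filament and the calcium release channel, ran from 149.5 to 319 and from 46.7 to 151 outside LCN2 replicate 4, and reached 5160.3 and 2390.1. For Neb and Ryr1 the next libraries were LCN2 replicate 2 and GFP replicate 2, whereas for Eno3 and Pygm the next was GFP replicate 4. LCN2 replicate 4 was 5.79-fold (Eno3), 9.95-fold (Pygm), 26.1-fold (Ryr1) and 27.6-fold (Neb) above their median.

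Acta1, skeletal actin (chromosome 8, 123891769 to 123894751, minus strand, GRCm38), behaved in neither way. It had 1164, 1703, 1101 and 2204 counts with GFP and 6824, 3047, 2039 and 16579 with LCN2. LCN2 replicate 4 was highest, but LCN2 replicate 1 came second at 6824 counts while its Ckm was 1.78, its Myh4 8.89 and its Ttn 23.1. Acta2, the smooth muscle actin, had 6952, 2010.3, 3659 and 16628 with GFP and 13225, 13298, 7082 and 6903 with LCN2. The 2 highest libraries for Acta2 after GFP replicate 4 were LCN2 replicates 2 and 1, whereas LCN2 replicate 4 was not raised. Of the 75-base windows of Acta1, 0.394% recur in other genes, among them Actb. Per length, Acta1 was the highest member in mean level at 76.0 reads per kilobase of exon and 1000000 recovered reads, before Myl1 at 21.2 and Mylpf at 11.6.

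**Figure D3:**
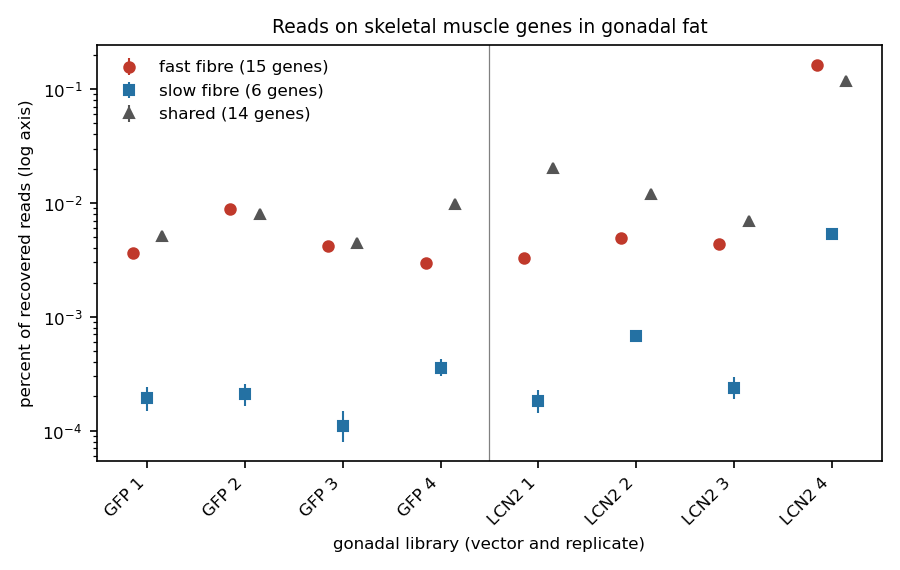
Percent of recovered reads on the 15 fast, 6 slow and 14 shared members in each gonadal library, on a log axis, with 95% exact binomial intervals as bars. LCN2 replicate 4 is highest in all 3 classes, GFP replicate 2 is second for fast genes, LCN2 replicate 2 for slow genes and LCN2 replicate 1 for shared genes.

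Summed over classes, fast members took 1635 CPM in LCN2 replicate 4, 88.2 in GFP replicate 2 and 29.6 to 49.2 in the other 6 libraries. Slow members took 53.7 in LCN2 replicate 4, 6.80 in LCN2 replicate 2 (interval 5.98 to 7.69) and 1.10 to 3.57 in the others. Shared members took 1184 in LCN2 replicate 4 and 202 in LCN2 replicate 1, most of it Acta1, against 44.0 to 119 in the others. In all, 34 of 35 members were highest in LCN2 replicate 4, as were 9.77% of all genes tested. The members were chosen with earlier results of these data known, so this count is no test. Of those 34, 16 had GFP replicate 2 as the next library and 13 had LCN2 replicate 2. Whether these reads came from muscle fibres in the piece or from cells of the fat was not tested.

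Against this spread the members were compared between the vectors. The comparison asks what LCN2 made by fat cells changes, and it was tested with limma on log2 of the normalized count plus 1, with Benjamini-Hochberg adjustment over all 19536 genes tested. None of the 33 members tested was called at an adjusted p under 0.05, where 20 genes or 0.102% of all were called. Without LCN2 replicate 4 only 24 members passed the filter. Myoz1, Ampd1, Myh7, Actn2, Ckmt2, Cacna1s, Myot, Tcap and Cox6a2 were tested only through that library. At an unadjusted p under 0.05 there were 3 members, against 14.8% of all genes. The groups overlapped in all 35 members, while 4.4% of all genes tested were higher and 4.71% lower in every LCN2 library than in any GFP library. Fitted differences were positive in 14 of 15 fast, 6 of 6 slow and 14 of 14 shared members. Their medians were 1.75, 1.49 and 1.70 on the log2 scale, beside 0.01 over all genes tested.

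LCN2 replicate 4 decided those medians. Without it they were -0.11 for fast, 0.72 for slow and 0.05 for shared members, and 7 of 15, 6 of 6 and 8 of 14 members were higher with LCN2. Myh4 went from a difference of 2.42 ± 2.69 (SE) with an adjusted p of 0.741 in limma to -0.11 ± 1.96, and Ckm from 1.55 ± 2.36 to -0.68 ± 1.71. Mybpc2, the fast myosin-binding protein, went from 0.22 ± 1.89 to -1.84 ± 0.98. The slow members that stayed positive without it included Myh7 at 1.40, which had 43.4 counts in LCN2 replicate 2 and at most 5.09 in any GFP library. Without both LCN2 replicate 4 and GFP replicate 2, the medians were 0.62 for fast, 0.62 for slow and 0.59 for shared members. Myh4 was then at 1.74. Leaving out LCN2 replicate 2 as well, a choice made after seeing the data, gave medians of -0.0067, 0.19 and -0.03.

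Acta1, Casq1 and Casq2 were the 3 members with an unadjusted p under 0.05. Acta1 differed by 1.80 ± 0.59 (SE) between the vectors, with 4 libraries per group and an adjusted p of 0.219 in limma. Without LCN2 replicate 4 its difference was 1.23 ± 0.41, with an adjusted p of 0.317. Casq1 differed by 2.38 ± 0.84 (adjusted p = 0.240 in limma) and by 1.54 ± 0.55 without that library (0.336). Casq2 differed by 1.05 ± 0.39 (adjusted p = 0.255 in limma) and by 0.90 ± 0.42 without it (0.408). Mb, with 2.32 ± 1.05, kept 1.12 ± 0.43 without it (adjusted p = 0.351 in limma). DESeq2 on the recovered reads gave 7 of the members an adjusted p and called 2 of them, Casq1 at 3.08 (0.0440) and Acta1 at 2.20 (0.0485). That fit called 818 of the 19067 genes it tested, many more than limma, while edgeR called none of 33 members. The other members, among them Myh4, Ckm, Ttn and Mb, got no p-value from DESeq2. So 2 of 7 is not a rate over all members. Brown fat genes were also higher with LCN2 in gonadal fat, in 12 of 13 with a median of 1.13 and none called, and their part in these differences was not tested.

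**Figure D4:**
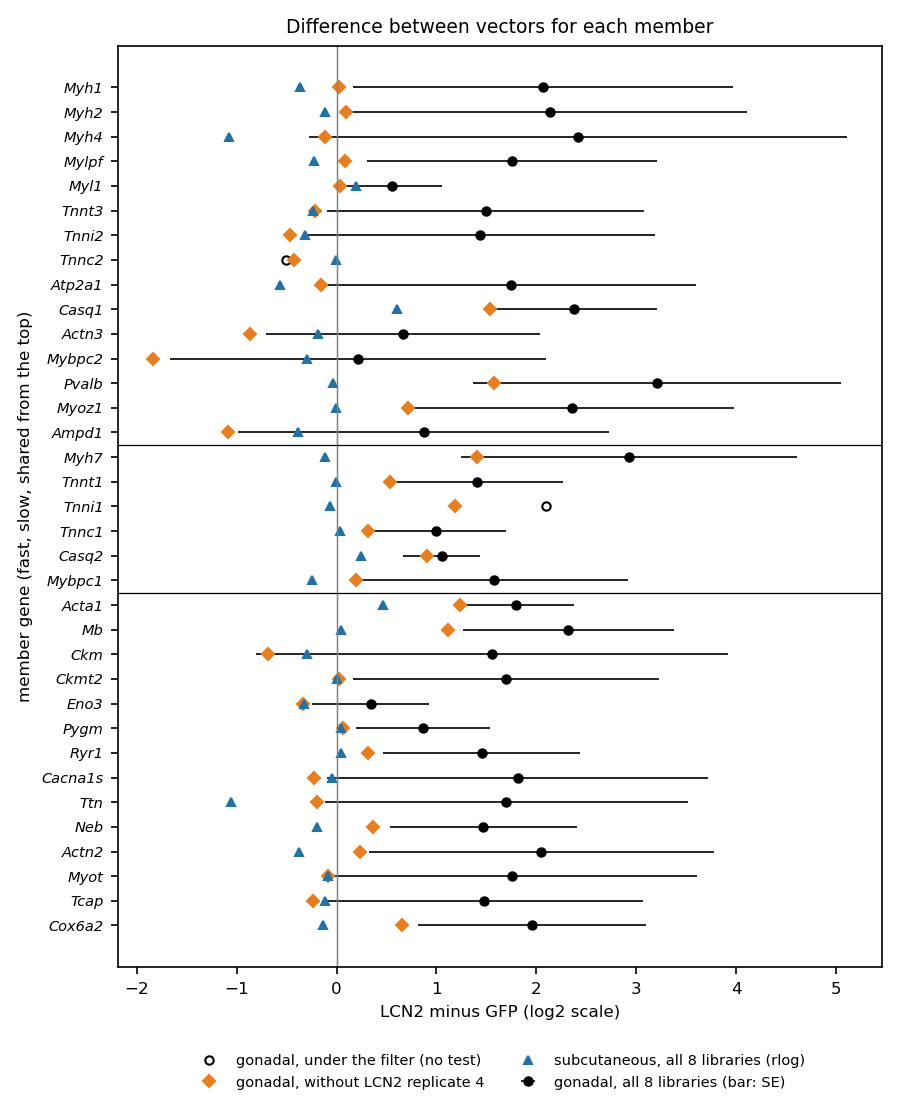
LCN2 minus GFP for each member, on the log2 scale: gonadal with all 8 libraries (black, bar: SE), gonadal without LCN2 replicate 4 (orange) and subcutaneous rlog (blue). Orange points lie on both sides of 0: Acta1, Casq1, Casq2, Mb, Pvalb, Myh7 and Tnni1 keep orange values of 0.90 to 1.57 and Mybpc2, Ampd1, Actn3 and Ckm lie at -1.84, -1.09, -0.87 and -0.68.

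In subcutaneous fat, where values are on the rlog scale that draws low genes towards their mean, no single library held all members. Myh4 had 7.21, 5.80, 6.19 and 4.81 with GFP and 4.61, 4.67, 5.88 and 4.57 with LCN2. GFP replicate 1 was highest, followed by GFP replicate 3, LCN2 replicate 3 and GFP replicate 2. Atp2a1 had 6.63, 5.72, 5.97 and 5.17 with GFP and 5.10, 5.09, 5.70 and 5.34 with LCN2. Ckm had 4.33, 3.62, 4.16 and 3.46 with GFP and 3.52, 3.45, 3.89 and 3.51 with LCN2. These 3 genes shared GFP replicates 1 and 3 as their highest libraries. Myh1 had 5.56, 5.21, 5.74 and 5.30 with GFP and 4.99, 5.16, 5.16 and 5.02 with LCN2, so that its groups did not overlap and LCN2 was the lower. Myh2 had 5.40, 4.74, 5.01 and 4.92 with GFP and 4.89, 4.97, 4.98 and 4.76 with LCN2. In all, 18 of 35 members were highest in GFP replicate 1, a library in which 23.7% of all genes tested were highest.

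A second group of members was high in both libraries with the most lymph node markers. Ttn had 8.20, 7.08, 6.29 and 5.66 with GFP and 5.56, 5.51, 5.58 and 6.36 with LCN2, with GFP replicates 1 and 2 the highest. Ampd1, the muscle AMP deaminase, had 3.98, 3.91, 3.28 and 3.19 with GFP and 3.21, 3.18, 3.27 and 3.16 with LCN2. Actn2 had 4.12, 3.94, 3.32 and 3.25 with GFP and 3.27, 3.31, 3.25 and 3.30 with LCN2. The T cell gene Cd3e had 8.98, 8.71, 5.69 and 5.50 with GFP and 5.99, 5.46, 5.77 and 5.84 with LCN2. Ttn was highest in the 3 libraries highest in the markers of B cells and lymph node as a whole, but GFP replicate 3, which was low in these markers, was at 6.29, close to the 6.36 of LCN2 replicate 4. Ampd1 and Actn2 were highest in the 2 libraries in which Cd3e was. They were not raised in LCN2 replicate 4, which was high in the markers of B cells and lymph node. GFP replicate 1 followed by GFP replicate 2 was the order in 7 members, which also include Mylpf, Tnni2, Mybpc1 and Eno3. Ttn, Ampd1 and Actn2 were singled out after their values were seen. The part of lymph node cells in their levels was not tested.

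Some other members were nearly level across the subcutaneous libraries, while Acta1, Eno3, Neb and Myl1 had ranges of 1.21, 1.04, 0.73 and 0.73. The 6 smallest ranges among members with a mean rlog of at least 3 were those of Tnnc1, Mb, Pygm, Pvalb, Ryr1 and Actn3. Of these, Tnnc1 and Pvalb had means of 3.40 and 3.39, near that filter, and rlog draws low genes towards their mean. Tnnc1 had 3.33, 3.40, 3.41 and 3.38 with GFP and 3.44, 3.42, 3.35 and 3.45 with LCN2. Mb had 5.05, 4.81, 4.95 and 5.005 with GFP and 4.97, 5.14, 4.90 and 5.001 with LCN2. Pygm had 7.17, 6.84, 6.94 and 7.01 with GFP and 7.003, 7.01, 7.20 and 6.92 with LCN2. In these 3 genes the groups overlapped and no library stood apart. Pvalb had 3.62, 3.32, 3.52 and 3.18 with GFP and 3.27, 3.49, 3.53 and 3.21 with LCN2. Ryr1 had 6.41, 6.06, 6.27 and 6.04 with GFP and 6.20, 6.12, 6.47 and 6.15 with LCN2. Actn3 had 5.05, 4.63, 4.90 and 4.55 with GFP and 4.49, 4.55, 4.74 and 4.61 with LCN2. For these 3 genes GFP replicates 1 and 3 and LCN2 replicate 3 were the 3 highest libraries, the ones that were highest for Myh4. Myl1 had 10.2, 9.84, 10.4 and 10.1 with GFP and 9.99, 10.3, 10.6 and 10.4 with LCN2. Eno3 had 8.65, 8.42, 7.88 and 8.25 with GFP and 8.20, 7.96, 7.61 and 8.14 with LCN2, and Neb had 7.56, 7.22, 7.04 and 7.13 with GFP and 7.24, 6.94, 7.15 and 6.83 with LCN2. The groups overlapped in these 3 genes, and for Eno3 and Neb GFP replicate 1 was the highest. Acta1 had 9.93, 9.96, 9.77 and 9.55 with GFP and 10.5, 10.8, 10.2 and 9.62 with LCN2. Its 3 highest libraries were LCN2 replicates 1 to 3, and its value in LCN2 replicate 4 lay within the range of GFP. Acta2 had 11.6, 11.8, 12.3 and 12.9 with GFP and 13.3, 13.4, 12.6 and 12.4 with LCN2, its 2 highest libraries being those of Acta1.

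Slow and other low members gave little to compare. Casq2 had 5.05, 4.89, 5.20 and 5.43 with GFP and 5.36, 5.53, 5.35 and 5.29 with LCN2. Mybpc1 had 4.28, 3.81, 3.74 and 3.55 with GFP and 3.496, 3.54, 3.55 and 3.81 with LCN2. Tnnt1 had 2.82, 2.88, 2.68 and 2.65 with GFP and 2.70, 2.84, 2.75 and 2.71 with LCN2. The groups overlapped in all 3, and Mybpc1 was highest in GFP replicate 1. Myh7 had 1.83, 1.82, 1.96 and 1.76 with GFP and 1.74, 1.76, 1.72 and 1.72 with LCN2. Its groups did not overlap, but its whole range was 0.24 and it lay under the filter. The 10 members under the filter of a mean rlog of 3 were Tnnc2, Myoz1, Myh7, Tnnt1, Tnni1, Ckmt2, Cacna1s, Myot, Tcap and Cox6a2. Tnnc2 was at the bottom of the scale, from -1.73 to -1.72.

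**Figure D5:**
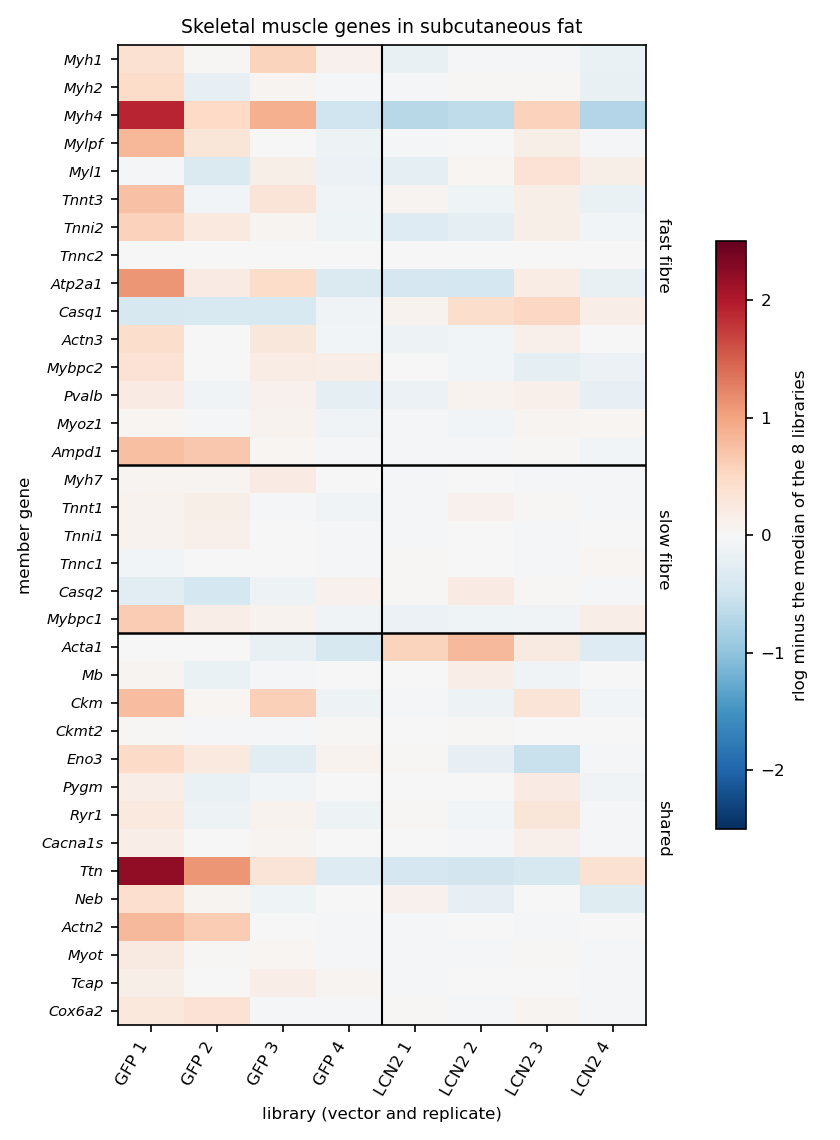
Rlog values of the 35 members in the 8 subcutaneous libraries, each gene relative to its own median (colour), with fast, slow and shared genes from the top. Myh4, Atp2a1 and Ckm are highest in GFP replicates 1 and 3, Ttn, Actn2 and Ampd1 in GFP replicates 1 and 2, and Casq1 and Acta1 in LCN2 libraries.

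Between the vectors, limma on the rlog values called 0 of the 25 members tested and 0% of all 20302 genes. At an unadjusted p under 0.05 there were 3 members, against 14% of all genes. Casq1 was higher in every LCN2 library than in any GFP library, as were 3.81% of all genes. It had 4.79, 4.80, 4.80 and 5.10 with GFP and 5.26, 5.61, 5.70 and 5.34 with LCN2. Its difference was 0.61 ± 0.12 (SE), with an unadjusted p of 0.000848 and an adjusted p of 0.308 in limma, and 0.57 without GFP replicates 1 and 2 and LCN2 replicate 4. Myh1 and the fast myosin-binding protein gene Mybpc2 were lower in every LCN2 library, as were 3.27% of all genes, with differences of -0.37 ± 0.12 and -0.29 ± 0.09 (adjusted p = 0.308 in limma for both).

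Median differences in subcutaneous fat were -0.22 for fast, -0.03 for slow and -0.10 for shared members, beside -0.00078 for all genes tested. Of the 15 fast members 13 were lower with LCN2, of the 6 slow members 4 and of the 14 shared members 9. Without GFP replicates 1 and 2 the medians were -0.07, 0.0099 and -0.0077. Myh4 differed by -1.07 ± 0.50 and Ttn by -1.05 ± 0.50 (adjusted p = 0.376 and 0.378 in limma). Without GFP replicate 1 these 2 differences were -0.67 and -0.59. Acta1 differed by 0.46 ± 0.23 (adjusted p = 0.393 in limma) and Casq2 by 0.24 ± 0.12 (0.383). Acta1, Casq1 and Casq2 had positive differences in both depots, and none passed the threshold of limma in either. The same sign in both depots was also seen for Myl1, Mb, Pygm, Ryr1, Tnnc1 and Ckmt2. In gonadal fat 34 of 35 members had a positive difference, so a shared sign was not particular to these genes. The tables of the 2 depots were normalized separately, so no difference between depots was tested.

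A wider list of 58 other skeletal muscle genes, also chosen with earlier results of these data known, was looked at in the same libraries. In gonadal fat 52 of the 58 were highest in LCN2 replicate 4. Xirp2, an actin-binding protein of striated muscle, had 2244 counts there and at most 81.4 elsewhere. The list also held genes with a level in every library, such as Des, Cacna2d1, Cmya5 and Myom1. Myom1, a protein of the M-band, had 447, 182, 302 and 538 with GFP and 271, 457, 256 and 903 with LCN2. None of the 49 tested was called, 53 of 58 fitted differences were positive and the median was 1.12.

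Most genes of heart muscle were not highest in that library. Of 9 heart genes measured in gonadal fat 2 were highest in LCN2 replicate 4, Myh6 with 121 counts and Myl4 with 594. Myh6 had 27.2 counts in LCN2 replicate 2 and at most 3.18 elsewhere. The atrial hormone gene Nppa had at most 1 read in any gonadal library, and Actc1, cardiac actin, had 2.03 to 26.1 counts with 14.0 in LCN2 replicate 4. Smooth muscle genes were not highest there in any of 12 cases, their median in LCN2 replicate 4 lying at -0.20 relative to each gene's own median on the log2 scale. The 13 adipocyte genes took 3.58% to 4.84% of reads in the gonadal libraries and were near their medians in LCN2 replicate 4, at 0.04. Brown fat genes lay at -0.31 relative to theirs in that library and were highest in LCN2 replicates 1 and 3, where the median lay 1.68 and 0.89 above. In subcutaneous fat 10 of 13 brown fat genes were highest in GFP replicate 1, the library with the highest Myh4, at a median of 1.19 above their own, and their part in the levels of the members was not tested.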

How the data were processed

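RNA sequencing covered gonadal and subcutaneous fat, with 4 LCN2 and 4 GFP libraries per depot, from RNA of integrity above 8.2 and with a library kit that keeps strand, per the labels' protocols. The submitters' processing notes name HISAT2, DESeq2, GRCm38 and mm10. Tool versions, the counting tool and its strand setting are stated neither there nor in the labels. The gonadal values the authors deposited are a signal per gene, counts divided by 1 size factor per library, and 100% came out as whole reads within a tolerance of 1e-06. Recovered totals were 35173260 to 42890102 reads. The subcutaneous values the authors deposited are rlog, a log2 scale that shrinks low genes, of unknown depth.

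Members and lists were chosen with earlier results of these data known. In both depots 99.4% of IDs matched a symbol in an annotation of GRCm38, which also gave exonic lengths. Tests were made in R 4.3.3 with limma 3.58.1, its variance prior following the mean level, on log2(normalized count + 1) for genes with a mean of at least 10 and on rlog with a mean of at least 3, and were tested on simulated data. A fold change on the log2(value + 1) scale understates the change of low genes. Differences are LCN2 minus GFP, with Benjamini-Hochberg adjustment and a threshold of 0.05. The raw-count test of the design was run as an alternative, with edgeR 4.0.16 and DESeq2 1.42.0, on the recovered reads. Other alternatives changed scaling, pseudocount, filter, test, replicate block and left-out libraries. Values in every library were given, per class and depot, for the 4 highest members, for Acta1, Mb and the 4 adult myosin heavy chain genes, and for the 6 members of smallest range. Other members, and some values of other lists, were given by range or chosen after their values were seen, and a few genes of these lists are not reported here. No 2 replicates were alike enough to be 1 library, with a mean chi-square per gene of at least 42 between gonadal replicates and an SD of the rlog difference of at least 0.185 between subcutaneous ones. The labels do not say that libraries came from separate mice, so p-values measure the spread between these libraries.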

Additional observations from a re-analysis of the deposited data

Results flagged for a closer look

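In groups of 4 libraries, 116 pairs of a tested member and a group were looked at on the log2 scale, and in 15 the highest or lowest library lay far from the other 3, a distance that chance gives in about 1 in 20 groups. The members share libraries, so these flags are not independent.

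In gonadal GFP libraries replicate 2 stood out in 7 members. Its normalized counts were 812 for Myh4, 290.0 for Atp2a1, 274 for Ttn, 109 for Myh2, 19.3 for Tcap, 16.3 for Myot and 3.05 for Ckmt2. In gonadal LCN2 libraries replicate 4 stood out in 4 members, with 3368 for Mylpf, 2422 for Pygm, 2317 for Actn3 and 543 for Myoz1. For Myh4, which was not marked among the LCN2 libraries, LCN2 replicate 2 was raised as well, with 88.7 counts.

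In subcutaneous fat, LCN2 replicate 3 stood out among the LCN2 libraries with rlog values of 5.88 for Myh4 and 3.89 for Ckm. LCN2 replicate 4 stood out for Ttn at 6.36. Among GFP libraries replicate 4 stood out for Casq1 at 5.10, the GFP value nearest to the LCN2 libraries.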

How the results depend on the processing

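Of 503 comparisons with an alternative, 462 kept their direction and side of the threshold or moved less than the spread. The number of gonadal genes called, 20 with limma, was 6 with library totals, 6 with totals without member reads, 11 with a mean of at least 50, 7 with edgeR, 818 with DESeq2, 6 without the intensity trend, 71 with sample quality weights, and 0 without LCN2 replicate 4 and GFP replicate 2 or without these and LCN2 replicate 2, where 1693 and 1075 genes had an unadjusted p under 0.05. Leaving out 1 library gave 1 to 66. DESeq2 called 2 members, with Acta1 at 2.20 and Casq1 at 3.08, and all other alternatives called 0. All fibre class medians rose with edgeR and DESeq2, which compare mean counts, where 1 high library weighs more than in means of log2 values. With edgeR the medians were 4.22 (fast), 2.41 (slow) and 4.12 (shared), and with DESeq2 4.22, 2.45 and 4.15. The causes were not tested.

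With 1 library left out, gonadal medians ran from -0.11 to 2.37 (fast), 0.72 to 2.23 (slow) and 0.0462 to 2.53 (shared), each lowest without LCN2 replicate 4, where Myh4 was at -0.11 and Ckm at -0.68, up to 4.28 and 2.88 without GFP replicate 2. Without both LCN2 replicate 4 and GFP replicate 2, the gonadal medians were 0.62 (fast), 0.62 (slow) and 0.59 (shared). Without the 3 libraries highest in members, an alternative added after seeing the data, the fast median was -0.0067 and the shared -0.0306. Subcutaneous medians ran from -0.30 to -0.07 (fast), -0.0674 to 0.0010 (slow) and -0.12 to -0.06 (shared). Without GFP replicates 1 and 2 the slow median was 0.0099 and the shared -0.0077. Without LCN2 replicate 4 as well, also added later, the fast was -0.0183 and the shared 0.0064. With sample quality weights the slow median was -0.0753. The member read share of LCN2 replicate 4 was 0.287%, and 0.323% without the 10 most abundant genes. Its Myh4 share was 58.4% per length and 55.7% undivided.

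With the replicate block, limma called 0 genes in gonadal fat (2636 at an unadjusted p under 0.05) and 0 in subcutaneous fat (3200). Same-numbered libraries of the 2 vectors did not deviate together, with correlations of -0.36 to 0.42 in gonadal and -0.36 to 0.34 in subcutaneous fat, and only replicate 3 correlated best with its own number in both depots, so the numbers are not read as pairs. In the gonadal libraries 3 reads are 0.0699 to 0.0853 CPM, which limits Tnnc2, Tnni1, Ckmt2 and Myot.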

Other observations

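Most genes of myogenic factors and the endplate had few counts. The myogenic factor genes Myod1 and Myog had 15.04 and 8.02 normalized counts in gonadal LCN2 replicate 4 and at most 1.02 in any other gonadal library, and Myf6, the factor of mature fibres, had 36.1 there and at most 2.02 elsewhere. Pax7, a satellite cell gene, had 2.01 counts there and at most 1.02 elsewhere. Chrna1, a subunit of the acetylcholine receptor at the endplate, had 22.1 counts in that library and at most 2.49 elsewhere. By contrast Chrnb1 and Msc had between 75.5 and 378 counts in every gonadal library. Of the 12 genes of this list measured in gonadal fat, 8 were highest in LCN2 replicate 4.

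Myosin genes of developing and eye muscle rose with the adult ones. Myh8, the perinatal myosin, had 2916 counts in gonadal LCN2 replicate 4, 84.4 in GFP replicate 2 and 36.3 in LCN2 replicate 2, with 2.49 to 6.36 elsewhere. Myh13, the extraocular myosin, had 467 there and at most 17.3 elsewhere, and Myh3, the embryonic one, had 385 and at most 9.16. Both Myh8 and Myh13 share 75-base windows with Myh1, Myh2 and Myh4, so reads of the adult genes may be counted under their names.

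The 20 non-member genes most like the mean of the shared fibre members over the 8 gonadal libraries had Pearson correlations of 0.954 to 0.988 on the log2 scale, which rest on the 1 library that is highest. Those reported here were, in order, Lmod2, Klhl41, Nrap, Myh3, Sln, Smpx, Ppp1r3a, Synpo2l, Art1, Myh13, Myh8, Phykpl, Klhl31, Gm43858, Rpl3l, Myom2, Dnaja4, Mylk2 and Trim72. Of the 20 genes, 15 are in the list of other muscle genes. In subcutaneous fat the correlations were 0.962 to 0.976, and 0 of the 20 genes are in the lists of other muscle or myogenic genes. They were Cyp3a41b, Cyp3a41a, Sec11c, Fut7, Gm4883, Oit1, Nxph1, Gm9432, 4932442E05Rik, Il12rb1, Rabggta, Atcay, Tigit, Baz1a, Syngr2, C530050E15Rik, Gm43461, Mir142b, Gm26541 and Ranbp6. Each was highest in GFP replicate 1, as were 23.7% of all genes tested, and next highest in GFP replicate 2. These correlations thus rest on those libraries.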
